A study of Mus musculus with 4 samples.

Results

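Fatty acid uptake, binding and oxidation was examined through 10 genes, namely Lpl, Cd36, Slc27a1, Slc27a4, Acsl1, Fabp3, Fabp4, Fabp5, Plin2 and Cpt1a. The genes were chosen by function, because the omentum is a fat-rich tissue. The choice was made with earlier results of these data known, although the rule uses no measured value. Of 32994 probes that could be named through a RefSeq accession, 17 belonged to these genes. A total of 22911 genes had such a probe. Among the 10 genes, 4 had 1 probe, 5 had 2 probes and 1 had 3 probes.

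RNA was measured in ID8G cells, the parental line, and in GO2 cells, on 2 Agilent arrays each. ID8 is a mouse ovarian cancer line derived from ovarian surface epithelium, and ID8G cells carry GFP from a retroviral vector and were not passed through a mouse. GO2 cells are GFP-positive cells sorted from omental tumors after a second passage through the peritoneal cavity of syngeneic mice, and they carry the same vector. ID8 cells were grown in DMEM with 4% serum, insulin, transferrin and selenite. No separate medium is stated for GO2 cells in the sources used here. Both are cultured lines, so the arrays describe cultured cells and not cells in the omentum. GO2 is a single selected line, and the number of tumors behind it is not given in the sources used here. The comparison asks which genes differ after passage through omental tumors, and here which of those that handle fatty acids do.

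Long-chain fatty acids reach a cell either from triglyceride that lipoprotein lipase splits or as free acids, and CD36 and the fatty acid transport proteins help them across the plasma membrane. Acyl-CoA synthetases activate them, fatty acid binding proteins carry them through the cytosol, perilipins coat the droplets in which they are stored as triglyceride, and the carnitine shuttle brings them into mitochondria for beta-oxidation. The omentum is rich in adipocytes, and transfer of fatty acids from adipocytes to ovarian cancer cells is a known theme of work on omental metastasis.

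Levels are log2 intensities from which the array's own 75th percentile was subtracted, so 0 is a bright probe and the levels of different probes cannot be set against each other. A difference is GO2 minus ID8G on the log2 scale, fitted with limma across all 28368 probes whose signal was well above background on each array of 1 line or both. Calls required an adjusted p (limma, Benjamini-Hochberg) below 0.05 together with a difference of at least 1, which is 2-fold. A gene with several probes was represented by its brightest tested probe. Between arrays of 1 line the median absolute log2 difference was 0.0773 in ID8G cells and 0.0778 in GO2 cells. The labels do not say whether the 2 arrays of a line came from separate cultures, so p-values measure the spread between these arrays, which may be technical, and the number of arrays limits the precision. No single value could pass an exact two-sided permutation test, whose smallest p with 2 arrays against 2 is 0.333.

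The fatty acid binding proteins changed in opposite directions. Fabp3 was called higher in GO2 cells, and Fabp4, Fabp5 and Lpl were called lower. Acsl1 was called higher by its brighter probe. Plin2 fell by less than 2-fold, Slc27a1, Slc27a4 and Cpt1a were not called, and Cd36 was not well above background on any array. Thus 2 genes were called higher, beside 5.98% of all 13215 genes tested, and 3 were called lower, beside 3.94%. By probes, 3 were called higher (background 4.5%), 6 were called lower (background 3.34%, and 7.84% in either direction) and 6 were not called. The adjusted p alone was missed by 2 of the 9 genes tested, Slc27a4 and Cpt1a, and was passed by 41.0% of all genes. The 2 lines did not overlap for any of the 15 probes tested, as for 73.6% of all probes. Fabp3 and Fabp4 entered the test only through the line in which they were high, so these counts are a description and not support for a change of the group.

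**Figure D1:**
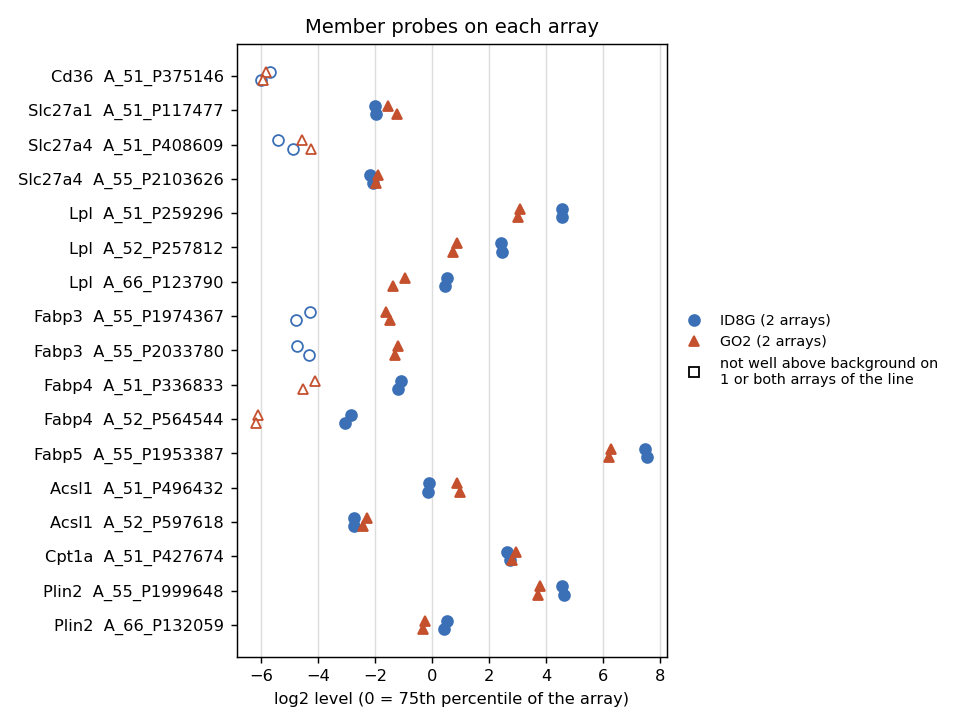
The horizontal axis gives the log2 level of each of the 17 probes on each array, with 0 at the 75th percentile of that array. Circles are ID8G arrays, triangles are GO2 arrays, and open symbols mark a line in which the probe was not well above background on 1 or both arrays. The Lpl and Fabp5 triangles lie to the left of the circles, Fabp3 and Fabp4 are open in opposite lines, and Cd36 is open in both.

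Lipoprotein lipase, which releases fatty acids from circulating triglyceride, was measured by 3 probes, and each was called lower in GO2 cells. The brightest, A_51_P259296, had log2 levels of 4.57 and 4.55 in ID8G cells and 3.07 and 2.99 in GO2 cells. The difference was -1.53 ± 0.06 (SE, adjusted p = 0.00046, limma), which is 2.88-fold lower. Both GO2 arrays were thus well below both ID8G arrays. The probe A_52_P257812 gave 2.40 and 2.45 against 0.86 and 0.74, a difference of -1.62 ± 0.07 (SE). The probe A_66_P123790 gave 0.52 and 0.44 against -0.97 and -1.36, a difference of -1.64 ± 0.15 (SE). The 95% intervals of the 3 Lpl probes overlapped. Lpl was well above background on all 4 arrays, so GO2 cells had less Lpl signal rather than none. In RNA from whole cultures, fewer cells with a transcript and less transcript per cell cannot be told apart.

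Cd36, the membrane receptor for long-chain fatty acids, has 1 probe here. Its log2 levels were -5.71 and -6.00 in ID8G cells and -5.85 and -5.96 in GO2 cells, not well above background on any array, and it was not tested. The fatty acid transport protein Slc27a1 had log2 levels of -2.00 and -1.98 in ID8G cells and -1.56 and -1.23 in GO2 cells. The difference was 0.60 (95% interval 0.25 to 0.94, adjusted p = 0.0298, limma), under 2-fold. Slc27a4, a second transport protein, gave -2.19 and -2.09 against -1.90 and -1.96 with probe A_55_P2103626. Its difference of 0.20 (95% interval 0.03 to 0.38, adjusted p = 0.0769, limma) missed the threshold, and scaled to the spike-in RNAs it was -0.01. The other Slc27a4 probe was not well above background on any array. No membrane transport protein among the 10 genes was therefore called, and the intervals of Slc27a1 and Slc27a4 lay inside 2-fold.

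Acsl1, which couples long-chain fatty acids to coenzyme A, was higher in GO2 cells, but its probes disagreed in size. The probe A_51_P496432 had log2 levels of -0.11 and -0.15 in ID8G cells and 0.88 and 0.95 in GO2 cells. The difference of 1.05 ± 0.06 (SE, 95% interval 0.89 to 1.20, adjusted p = 0.00101, limma) is 2.07-fold. The dimmer probe A_52_P597618 gave -2.75 and -2.76 against -2.29 and -2.43, a difference of 0.40 ± 0.07 (SE, adjusted p = 0.0187, limma), which was not called. On both probes each GO2 array was above each ID8G array. The call of the brighter probe lies close to the 2-fold limit and was lost with normexp background correction (0.97) and with spike-in scaling (0.84).

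Fabp3, the heart-type fatty acid binding protein, was not well above background in ID8G cells and was measured on both GO2 arrays. With probe A_55_P2033780 its log2 levels were -4.74 and -4.33 in ID8G cells and -1.22 and -1.31 in GO2 cells. The fitted difference was 3.27 ± 0.16 (SE, adjusted p = 0.000747, limma), and against the dimmest signal well above background GO2 cells were at least 5.32-fold higher. The probe A_55_P1974367 gave -4.31 and -4.79 against -1.64 and -1.49, at least 4.33-fold higher. Both Fabp3 probes thus gave the same direction and similar bounds. Fabp3 was still a dim gene in GO2 cells, below the 75th percentile of the array, and its fitted difference fell to 1.71 with normexp background correction.

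Fabp4, the adipocyte-type protein, showed the reverse pattern. With probe A_51_P336833 its log2 levels were -1.11 and -1.21 in ID8G cells and -4.12 and -4.55 in GO2 cells, where it was not well above background. The fitted difference was -3.18 ± 0.16 (SE, adjusted p = 0.000851, limma), which as a bound is at least 6.28-fold lower. The probe A_52_P564544 gave -2.86 and -3.08 against -6.11 and -6.18, at least 1.79-fold lower. The bound of the second probe is smaller because that probe was dimmer in ID8G cells. With normexp background correction the fitted differences were -1.65 and -1.06, and with dim values raised to the lowest signal above background the second was -0.84 and was not called.

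Fabp5, the epidermal-type protein, gave a strong signal in both lines, with intensities of 118576 and 123863 in ID8G cells and 48727 and 46240 in GO2 cells. Its log2 levels were 7.46 and 7.53 against 6.26 and 6.20. The difference was -1.26 ± 0.06 (SE, adjusted p = 0.00074, limma), which is 2.40-fold lower. Both GO2 arrays were below both ID8G arrays, yet Fabp5 remained far above the 75th percentile of the array in both lines. No spot on the arrays was saturated.

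Fabp4 and Fabp5 lie in 1 cluster of fatty acid binding protein genes, in the RefSeq order Fabp5, Pmp2, Fabp9, Fabp4 and Fabp12. Pmp2, Fabp9 and Fabp12 were not well above background on any array, so Fabp4 and Fabp5 are the cluster members with a measured difference. Fabp3 lies on another chromosome. The genes next to the cluster were looked up after these values were seen. Impa1, an inositol phosphatase gene on one side, had a difference of -0.46 (adjusted p = 0.00755, limma), and Zfp704, beyond Pag1 on the other, had -0.77 (adjusted p = 0.00233, limma). Neither reached 2-fold, and Pag1 was not well above background.

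Plin2, which coats lipid droplets and follows the amount of stored lipid in many cells, fell in GO2 cells by less than 2-fold. The probe A_55_P1999648 had log2 levels of 4.54 and 4.63 in ID8G cells and 3.79 and 3.71 in GO2 cells, a difference of -0.83 ± 0.07 (SE, 95% interval -1.01 to -0.65, adjusted p = 0.00256, limma). The probe A_66_P132059 gave 0.51 and 0.42 against -0.27 and -0.33, a difference of -0.77 ± 0.06 (SE). The 2 Plin2 probes agree in direction and size, and their arrays do not overlap between the lines. With spike-in scaling the first probe reached -1.04 and was called.

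Cpt1a, the outer-membrane enzyme that commits fatty acids to mitochondrial oxidation, was not called. Its log2 levels were 2.63 and 2.73 in ID8G cells and 2.92 and 2.81 in GO2 cells. The difference was 0.18 (95% interval -0.02 to 0.38, adjusted p = 0.126, limma), and scaled to the spike-in RNAs it became -0.03. The interval lies well inside 2-fold.

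**Figure D2:**
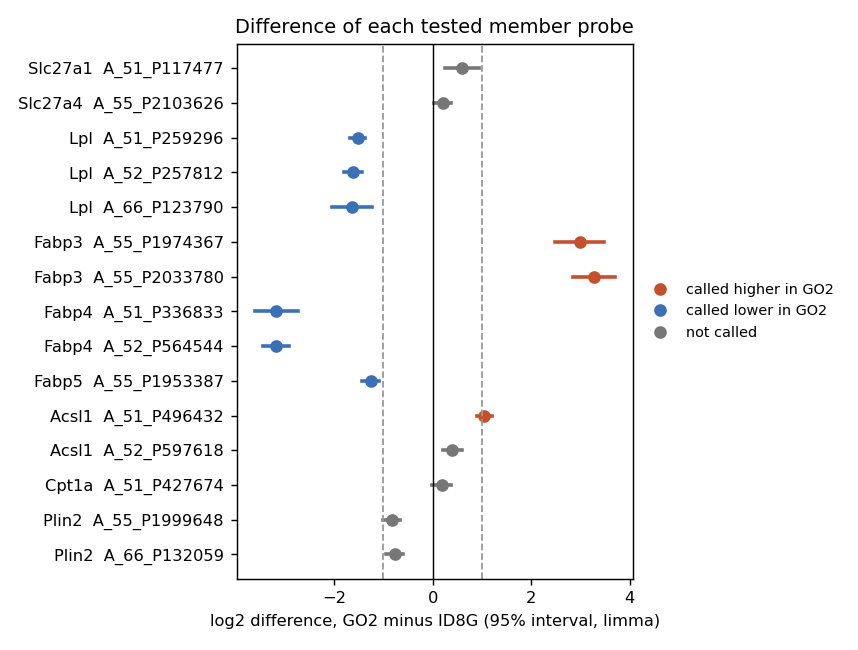
The horizontal axis gives the log2 difference, GO2 minus ID8G, of each of the 15 tested probes with its 95% interval from limma, and dashed lines mark 2-fold. The fitted intervals of Fabp3 and of Fabp4, Fabp5 and Lpl lie beyond the dashed lines on opposite sides. Those of the brighter Acsl1 and Plin2 probes cross a line, and those of Slc27a4 and Cpt1a lie near 0. For Fabp3 and Fabp4 the intervals rest on values not well above background in 1 line, where only bounds hold. The bound of the dimmer Fabp4 probe, 1.79-fold, is inside 2-fold.

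Promoter sequence was examined for the members with an entry in the RefSeq promoter table (GRCm38.p6), which were 7 genes with 10 start sites. Fabp4, Fabp5 and Lpl, the 3 genes called lower, are not among them, so motifs and directions were not compared. The 250 bases upstream of the start are shown for Fabp3 and for the first start of Acsl1, the genes called higher, and for Plin2, which fell. Capitals mark AGGTCA, the half-site that nuclear receptors such as PPARs bind, and GGGCGG, the core of a GC box, on either strand. The regions are chr4:130308488-130308737 (plus strand), chr8:46470787-46471036 (plus strand) and chr4:86670060-86670309 (minus strand).
Fabp3: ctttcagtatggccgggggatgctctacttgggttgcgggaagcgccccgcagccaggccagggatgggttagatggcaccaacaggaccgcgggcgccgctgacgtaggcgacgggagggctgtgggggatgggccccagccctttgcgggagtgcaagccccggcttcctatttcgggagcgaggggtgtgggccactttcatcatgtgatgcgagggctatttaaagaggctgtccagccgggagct
Acsl1: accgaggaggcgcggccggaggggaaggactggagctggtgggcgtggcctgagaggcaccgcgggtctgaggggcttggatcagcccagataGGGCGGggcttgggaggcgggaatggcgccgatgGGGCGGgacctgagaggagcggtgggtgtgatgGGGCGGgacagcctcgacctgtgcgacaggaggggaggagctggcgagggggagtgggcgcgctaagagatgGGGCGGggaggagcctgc
Plin2: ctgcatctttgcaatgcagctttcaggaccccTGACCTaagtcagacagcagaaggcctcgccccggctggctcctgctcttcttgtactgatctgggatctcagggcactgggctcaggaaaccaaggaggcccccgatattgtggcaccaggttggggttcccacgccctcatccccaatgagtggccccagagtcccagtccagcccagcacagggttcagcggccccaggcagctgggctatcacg

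The Acsl1 window holds 4 GC boxes and has 72.0% G and C, the Plin2 window holds 1 AGGTCA, and the Fabp3 window holds neither motif. Among all 32851 promoters of that length, 14.0% held AGGTCA and 32.7% held GGGCGG. Of the 10 member promoters, AGGTCA was in 3, those of Cd36, Cpt1a and Plin2, and GGGCGG was in 6. The exact direct repeat of AGGTCA with 1 base between the copies, the consensus PPAR element, was in 0 of the member promoters and in 0.0335% of all promoters. With so rare a match, its absence says nothing about PPAR elements that differ from it or lie outside the window. TATAAA was in 0 of the member promoters and in 12.4% of all. The motifs were searched on both strands, an AGGTCA counts also inside the direct repeat, and a match describes the letters only.

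To place the 10 genes, 130 further genes of the same pathway were followed in 8 lists, of which 101 were tested. Among them 6 were called higher (5.94%) and 7 lower (6.93%), beside 5.98% and 3.94% of all genes tested, and the median difference was -0.05, beside 0.00 over all genes. Called genes made up 6 of 16 among the partners of lipoprotein lipase and 0 of 18 in mitochondrial beta-oxidation, and the difference between these lists was not tested. Pltp, Lipg and Apoc1 among the partners, and Cpt1c and Lpin3 in other lists, entered the test only through the line in which they were high. These counts are therefore a description and not support for a change of a list.

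Mitochondrial beta-oxidation was represented by 18 genes, all tested, and none was called. Their median difference was -0.05, and the 95% intervals of all 26 probes lay between -0.49 and 0.52, well inside 2-fold. The adjusted p alone was passed by 4 of the 18 genes, 1 higher and 3 lower, beside 41.0% of all genes tested. An unadjusted p below 0.05 (limma) was reached by 7, and the share of all genes at that level was not computed. The methods' t-test called 0, with 2 genes at an unadjusted p below 0.05. The brightest gene, Etfb, a subunit of the electron carrier that takes electrons from acyl-CoA dehydrogenases, had log2 levels of 5.55 and 5.47 in ID8G cells and 5.48 and 5.46 in GO2 cells. Its arrays overlapped between the lines, with a difference of -0.04 (adjusted p = 0.639, limma).

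Peroxisomal beta-oxidation gave a similar picture, with 13 of 15 genes tested and none called. The adjusted p alone was passed by 2 genes higher and 3 lower, beside 41.0% of all genes tested, and 7 had an unadjusted p below 0.05 (limma). The methods' t-test called 0, with 2 genes at an unadjusted p below 0.05. The brightest, the peroxisomal thiolase Acaa1a, had a difference of -0.28 (adjusted p = 0.0459, limma). In the carnitine shuttle, 1 of 10 genes was called by its brightest tested probe. This was Cpt1c, a neuronal relative of Cpt1a, with log2 levels of -3.45 and -3.20 in ID8G cells and -1.28 and -1.25 in GO2 cells, a difference of 2.07 ± 0.10 (SE, adjusted p = 0.000766, limma). It was well above background on only 1 of the ID8G arrays. Its second probe gave at least 1.95-fold, so Cpt1c and Cpt1a, which was not called, are set side by side here without a test of their difference. Slc22a5 of the same list is named because its probes disagreed. Its brighter probe was not called (0.62, adjusted p = 0.00598, limma). Its dimmer probe was called higher (1.23, adjusted p = 0.036, limma) and was well above background on only 1 of the ID8G arrays.

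Among the other fatty acid binding proteins, 2 of 9 genes were tested and neither was called. Dbi, the acyl-CoA binding protein and the brightest of them, had a difference of -0.27 (adjusted p = 0.0326, limma). The 1 gene with an unadjusted p below 0.05 was Dbi, and the methods' t-test called 0, with 0 at that level. The remaining 7, Fabp1, Fabp2, Fabp6, Fabp7, Fabp9, Fabp12 and Pmp2, were not well above background on any array. Fabp3, Fabp4 and Fabp5 were therefore the members of the Fabp family proper that could be measured.

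Of the other transport proteins and acyl-CoA synthetases, 12 of 16 were tested, 0 were called higher and 2 lower, and the median difference was -0.52. The fatty acid transporter Slc27a6 fell from log2 levels of 0.01 and 0.19 in ID8G cells to -1.56 and -1.29 in GO2 cells, a difference of -1.53 ± 0.12 (SE, adjusted p = 0.00275, limma). The synthetase Acsbg1 fell from 1.27 and 1.28 to -0.05 and -0.46, a difference of -1.52 ± 0.15 (SE, adjusted p = 0.00464, limma). A further 6 genes were lower by the adjusted p alone and 1, Cav1, was higher, beside 2120 and 1988 of all 13215 genes tested. Among the 6 were the synthetases Acsl3 (-0.51), Acsl4 (-0.66) and Acsl5 (-0.56), by their brightest probes. The probes of Cav1 gave 0.89 and 0.94 (adjusted p = 0.00266 and 0.00168, limma). Acsl1, with 1.05 on its brighter probe, thus lay just above the 2-fold limit and Cav1 just below it. The difference between Acsl1 and the genes of this list was not tested.

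Of the partners and relatives of lipoprotein lipase, 16 of 18 genes were tested. Of these, 4 were called higher and 2 lower, beside 5.98% and 3.94% of all genes tested. Angptl4, a secreted inhibitor of the lipase, fell with Lpl, from log2 levels of 4.20 and 4.45 in ID8G cells to 2.63 and 2.57 in GO2 cells (difference -1.73 ± 0.10, SE, adjusted p = 0.00127, limma). Apoc1, an apolipoprotein, was at least 3.26-fold lower and not well above background in GO2 cells. The receptor Vldlr rose from 0.015 and -0.002 to 2.30 and 2.29, a difference of 2.29 ± 0.05 (SE, adjusted p = 0.000217, limma), and its second probe was at least 4.39-fold higher. Both probes of this lipoprotein receptor thus rose while the lipase and its inhibitor fell.

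The remaining increases in that list included Pltp, the phospholipid transfer protein, with a fitted difference of 5.55 (adjusted p = 0.000182, limma). It was not well above background in ID8G cells, and as a bound it was at least 10.6-fold higher. Lipg, endothelial lipase, was at least 1.49-fold higher by 1 probe, while its other probe was not well above background on any array. The Lipg call was lost with normexp background correction (0.85) and with dim values raised to the lowest signal above background (0.58). Lrp1, a large endocytic receptor of lipoprotein remnants, differed by 1.05 ± 0.07 (SE, adjusted p = 0.00155, limma). The Lrp1 call lay at the 2-fold limit and was lost without the second ID8G array (0.99), with normexp background correction (0.99) and with spike-in scaling (0.84). Gpihbp1, named after its values were seen because it anchors lipoprotein lipase to capillary walls, had a difference of 0.04 and was not called.

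**Figure D3:**
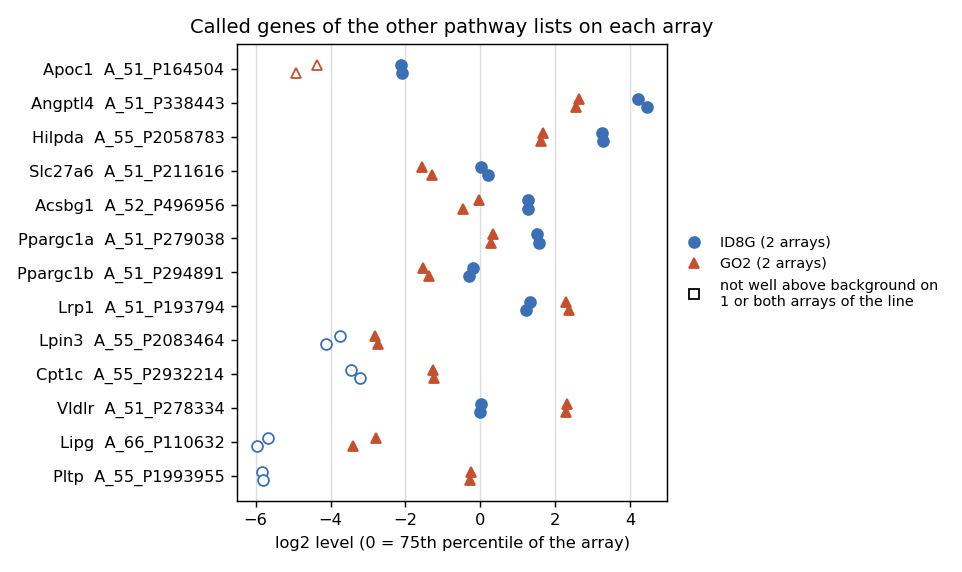
The horizontal axis gives the log2 level on each array of the 13 genes of the other lists that were called, with symbols as in the plot of the 10 genes. The triangles of GO2 cells lie to the left of the circles for the 7 genes called lower and to the right for the 6 called higher.

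Among droplet and lipolysis genes, 14 of 24 were tested, and the median difference was -0.14. Of these, 1 was called higher and 1 lower, beside 5.98% and 3.94% of all genes tested. Hilpda, a droplet protein that inhibits adipose triglyceride lipase, fell from log2 levels of 3.24 and 3.28 in ID8G cells to 1.67 and 1.61 in GO2 cells (difference -1.62 ± 0.06, SE, adjusted p = 0.00041, limma). The dimmer Lpin3 probe was not well above background on any array. By the other probe Lpin3, a phosphatidate phosphatase, had a fitted difference of 1.17 (adjusted p = 0.00756, limma). It was not well above background in ID8G cells, and as a bound it was at least 1.87-fold higher. Its call was lost without the second ID8G array (0.98) and without the second GO2 array (1.13, where the adjusted p missed the threshold), and also with normexp background correction (0.54), spike-in scaling (0.96) and dim values raised to the lowest signal above background (0.90). By the adjusted p alone, a further 3 genes of this list were higher and 5 lower, beside 1988 and 2120 of all 13215 genes tested. The 3 higher were Bscl2 (0.78), Agpat2 (0.71) and Gpam (0.55), by their brightest probes. Plin2 and Hilpda, both droplet proteins, were lower in GO2 cells, the first by less than 2-fold.

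Among PPARs and other regulators, 16 of 20 genes were tested, and the median difference was -0.23. Of these, 0 were called higher and 2 lower, beside 5.98% and 3.94% of all genes tested. Both genes called lower were PGC-1 coactivators, which drive mitochondrial and oxidative genes together with nuclear receptors. Ppargc1a fell from log2 levels of 1.52 and 1.55 in ID8G cells to 0.34 and 0.28 in GO2 cells (difference -1.23 ± 0.06, SE, adjusted p = 0.000685, limma), and its second probe gave -1.40. Ppargc1b fell from -0.20 and -0.31 to -1.53 and -1.38 (difference -1.20 ± 0.08, SE, adjusted p = 0.00184, limma). With normexp background correction Ppargc1b gave -0.96 and was not called. Pparg, a nuclear receptor of adipocytes named after its values were seen, had a difference of -0.42 (adjusted p = 0.0151, limma). It was thus lower by the adjusted p alone and was not called. Ppara was not well above background on any array.

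**Figure D4:**
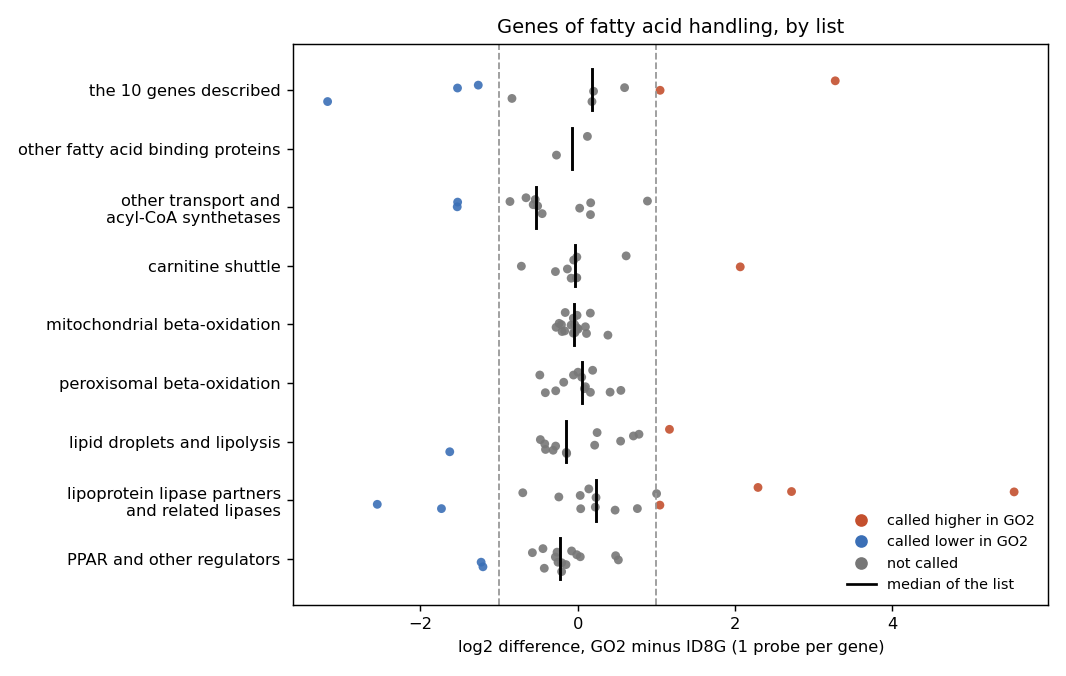
Each point is 1 gene, placed by its log2 difference, GO2 minus ID8G, with 1 row for the 10 genes and 1 for each of the 8 other lists. Black bars are list medians and dashed lines mark 2-fold. The 18 mitochondrial beta-oxidation genes lie close to 0, and called genes lie mainly in the rows of the 10 genes and of the partners of lipoprotein lipase. In those rows Fabp3, Fabp4, Pltp, Lipg and Apoc1 were tested only through the line in which they were high.

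The labelled cells were checked against markers. Of the ovarian surface and mesothelial list, 10 of 12 genes were tested, with Krt7 and Epcam not well above background. Krt19 was called lower (-1.65) and Upk3b higher (1.08) in GO2 cells, and Krt18 (-0.81), Msln (-0.82) and Krt8 (-0.55) were lower by the adjusted p alone. The summed level of this list, in multiples of the 75th percentile, was 680 and 672 in ID8G cells and 390.0 and 394 in GO2 cells. Such a sum follows the brightest probes of a list, so here and below it describes signal and not the share of a cell type. Of 10 adipocyte markers, 5 were not well above background on any array, among them Adipoq, Plin1 and Cfd. Only 2, Lep and Pparg, were tested, and 0 were called. The marker Pparg was lower by the adjusted p alone (-0.42, adjusted p = 0.0151, limma). The summed level of the adipocyte list was 3.57 and 3.40 in ID8G cells and 2.93 and 2.64 in GO2 cells. Its brightest probe was that of Pparg, with log2 levels of 1.52 and 1.48 against 1.14 and 1.01. Of 10 macrophage markers, 6 were not well above background on any array, among them Ptprc, Adgre1 and Lyz2. Itgam, Csf1r, Cd68 and C1qb were tested and not called. C1qb had a fitted difference of -0.61 (adjusted p = 0.0442, limma) and was not well above background in GO2 cells. Itgam was bright on all 4 arrays by 1 probe (log2 levels 4.18 and 4.39 in ID8G cells, 4.13 and 4.17 in GO2 cells). Its other probe was dim (-3.63 and -3.93 against -3.56 and -3.32) and well above background on only 1 array. The summed level was 20.8 and 23.6 in ID8G cells and 20.7 and 20.8 in GO2 cells. Of 10 endothelial markers, 7 were not well above background on any array, among them Cdh5 and Kdr. Esam, Pecam1 and Gpihbp1 were tested and not called, Esam with a difference of -0.68 (adjusted p = 0.00869, limma), and the summed level was 2.82 and 3.09 against 1.93 and 2.08. Of the 9 genes of the fibroblast list 5 were tested. Of these, 4 were called higher in GO2 cells (Col1a1, Col1a2, Col3a1 and Pdgfra), beside 5.98% of all genes tested. Lum, Thy1, Fap and Postn were not well above background. The remaining gene, Dcn, was bright in both lines and differed by -0.63 (adjusted p = 0.00309, limma), under 2-fold, and the summed level of the list was 71.3 and 68.6 against 150.0 and 150.4. The part of these genes in the differences of the fatty acid genes was not tested.

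The 75th percentile of intensity was 627 to 675 over the 4 arrays, 27502 to 28841 probes were well above background, and all arrays came from 1 slide and 1 scan. Relative to the main scaling, 7 spike-in RNAs were 0.15 to 0.28 higher on GO2 arrays. Scaled to them, the median of all probes moved from -0.02 to -0.23, and the differences above are relative to the 75th percentile.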

How the data were processed

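The authors hybridized Cy3-labeled cRNA to Agilent 1-color arrays. They deposited scanner intensity, background-corrected by Feature Extraction 11.5.1.1, and a table of log2 values from GeneSpring, whose normalization and test are not given in the sources used here. The deposited log2 values matched log2 intensity minus the 75th percentile, centered per probe (median deviation 0.0023), and served as an alternative. Their column medians were 0.10, -0.05, 0.04 and -0.05.

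Outlier spots were left out, spots of a probe were averaged, and limma 3.58.1 (R 4.3.3) was fitted with cell line as the only term. Figures used matplotlib 3.10.9 in python 3.11.15. Symbols came from RefSeq (GRCm38.p6) by accession for 58.3% of 56605 probes. Bounds ("at least") compare the brighter line with, per array, the higher of the lowest signal well above background and the dim probe's own level. Scripts were tested on simulated data. The members and lists were chosen with earlier results of these data known.

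All 10 members were named, with called genes of each list (up to 3 in each direction), or its brightest gene where none was called. Alternatives were normexp (offset 50, on the median pixel of each spot), quantile, median and spike-in scaling, other filters, a floor, a variance trend, the deposited table, the methods' t-test (unpaired, Welch), a replicate block and each array left out. A slide block was not run, since there was 1 slide.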

Additional observations from a re-analysis of the deposited data

How the results depend on the processing

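Fabp3 and Acsl1 were called higher and Fabp4, Fabp5 and Lpl lower under each leave-one-out fit, so the counts were 2 to 2 and 3 to 3. Such a fit leaves 1 array in a line, which is assumed to vary like the other line, and the spread comes from the other line alone. In the pathway lists leave-one-out counts were 4 to 8 higher and 7 to 7 lower, and 8.62% to 9.08% of all probes were called, against 7.84% with all arrays. The members called higher numbered 1 with normexp background correction, 1 with spike-in scaling (without Acsl1) and 1 when signal well above background on all 4 arrays was required, which removes Fabp3 and Fabp4 from the test. The pathway genes called higher numbered 3 with normexp and 2 with the all-array filter. Of all probes, 4.71% were called with normexp, 4.53% when dim probes were not removed, 4.89% with the all-array filter and 0.0106% with the methods' t-test. That t-test called 0 members and 0 pathway genes in either direction after adjustment. At an unadjusted p below 0.05, 6 members and 37 pathway genes passed it, of which 5 and 10 differed by at least 2-fold. The share of all genes at an unadjusted p below 0.05 was not computed for either test. The counts at that level, here and for the lists above, are therefore a description only.

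Same-numbered arrays did not deviate together after scaling (correlation 0.03). The labels do not say whether same-numbered arrays were handled together, and this value cannot decide it. With the replicate number as a block, 2 members were called higher and 3 lower, 6 and 7 pathway genes, and 7.71% of all probes. Of 236 values of member probes under the alternatives, 0 reversed after a call, 12 lost a call (9 of them in the t-test) and 1 gained one. Of 264 values of other named probes, 31 lost a call, 17 of them in the t-test. Low signal over background leaves only bounds for Fabp3 and Fabp4 and no test for Cd36.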
